A study of Mus musculus with 6 samples.

Results

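Cholesterol is made from acetyl-CoA by the mevalonate pathway, or taken up from lipoproteins, and the 8 genes described here stand on both routes. Hmgcs1, Idi1 and Fdps act in the mevalonate and isoprenoid steps. Fdft1 makes squalene, and Sqle, Lss and Cyp51 act in the steps from squalene to the first sterols. Scarb1 encodes the receptor that takes cholesterol esters from high-density lipoprotein. They were matched by symbol, ignoring case, to the platform annotation. A named probe was found for 6 of the 8 genes, with 7 probes in all, among 17742 genes on 20377 named probes. No probe carried the names Hmgcs1 or Cyp51, which are not analysed here.

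Steroid-producing cells of the ovary draw much of their cholesterol from lipoproteins through Scarb1, and use it as the substrate of steroid hormones. The brain makes its own cholesterol, since lipoproteins of the blood do not cross into it, and much of that cholesterol lies in myelin. Transcription of the synthesis genes is under the control of SREBP2, a factor released when sterols in the endoplasmic reticulum run low.

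Each of the 6 arrays was hybridised with Cy5-labelled RNA of 1 tissue from female BALB/c mice. Brain, ovary and uterus were sampled from mice labelled mock, which had no treatment, and from mice that took Sheng-Hua-Tang (SHT), a herbal decoction of Chinese medicine, orally at 200 mg/kg for 7 days. With 1 array in each of these groups, differences between groups could not be set against replicate error, and precision is limited by the number of arrays. The labels do not state the age of the mice or how many animals an array stands for.

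Marker genes went against the tissue label of 4 of the 6 arrays, so the name of an array below is its label and not its tissue. Neuron, astrocyte and oligodendrocyte markers (5 genes with a probe in each list) were all above the background spread on the mock brain and SHT ovary arrays, and 0 to 4 of 5 elsewhere. Background spread here means below the 95th percentile of 529 olfactory receptor genes on the same array, which lay between 275 and 541. All 3 theca and luteal markers with a probe exceeded it on the SHT brain and mock uterus arrays, and 1 of 3 on each of the others. All 7 markers of stratified epithelium exceeded it on the mock ovary and SHT uterus arrays, and 2 to 4 of 7 elsewhere. The median of the uterus list was also highest there, at 2805 and 6642, against 1163 on the array labelled SHT brain. The closest array to each array over all probes had another tissue label, with Pearson correlations across probes of 0.996, 0.981 and 0.972 for these 3 pairs. Below, the profile of an array means the brain, gonadal or uterine and squamous marker set that stood out on it. The mock brain and SHT uterus arrays, on which markers of the labelled tissue stood out, share no tissue. No SHT comparison can thus be made without the others. The stratified epithelium list had a median of 43261 on the SHT uterus array and 53780 on the mock ovary array, against 115 to 462 on the others. The label of the SHT uterus array does not name such an epithelium. In RNA from whole tissue, fewer cells of a type and less RNA per cell cannot be told apart.

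Among the synthesis genes, 4 of the 5 with a probe read lowest on both brain-profile arrays, while Fdft1 was nearly flat. The 5′ windows of Idi1 and Lss are shown because both genes followed that pattern and because both carry a named probe. A RefSeq window (build GRCm38.p6, 250 bases before to 50 after a start site) matched 4 of the 8 genes: Hmgcs1, Idi1, Lss and Cyp51. Capitals mark matches on either strand to CCAAT (the NF-Y box) and GGGCGG (the Sp1 box). The window of Idi1 is chr13:8885356-8885655 on the plus strand, and that of Lss is chr10:76531355-76531654 on the plus strand. The gene start listed for Lss is 76531565, and the start site of its window lies downstream of that, inside the gene. For Hmgcs1, Idi1 and Cyp51 the start site of the window is the listed gene start.
Idi1: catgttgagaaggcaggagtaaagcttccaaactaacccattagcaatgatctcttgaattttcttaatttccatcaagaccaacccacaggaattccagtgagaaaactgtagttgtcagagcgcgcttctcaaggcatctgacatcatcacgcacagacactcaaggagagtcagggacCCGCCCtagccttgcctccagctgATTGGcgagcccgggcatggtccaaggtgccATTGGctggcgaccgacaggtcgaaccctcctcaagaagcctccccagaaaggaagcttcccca
Lss: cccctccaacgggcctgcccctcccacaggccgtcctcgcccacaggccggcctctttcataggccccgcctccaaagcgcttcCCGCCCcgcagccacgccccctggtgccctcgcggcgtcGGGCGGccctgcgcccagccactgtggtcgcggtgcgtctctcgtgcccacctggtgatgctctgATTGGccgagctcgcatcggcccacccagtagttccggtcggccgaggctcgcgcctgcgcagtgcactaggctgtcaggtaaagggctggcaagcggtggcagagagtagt
CCAAT matched in reverse at positions -45 and -14 of Idi1 and at -62 of Lss, counted from the start site of each window. Such a match occurs in 37.4% of 32851 windows. GGGCGG matched once in Idi1, at -69, and at -166 and -127 in Lss, against 35.7% of windows. The letters TCACNCC (an SREBP site), CACGTG (an E-box) and AAGGTCA (an SF-1 site) were not in either window. Of the members without a probe, Hmgcs1 has TCACNCC at -220 and -137 and AAGGTCA in reverse at -246 in its window, and Cyp51 has none of these 3 motifs. They occur in 15.6%, 7.15% and 4.72% of windows. A match is a description of the letters and says nothing of binding.

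Idi1, which isomerises isopentenyl diphosphate, read 1269 on the array labelled mock brain, 2241 on SHT brain, 2940 on mock ovary, 1258 on SHT ovary, 3093 on mock uterus and 2967 on SHT uterus. The arrays with a brain profile were thus the lowest, and the other 4 lay within 1.38-fold of each other. Fdps, which makes farnesyl diphosphate, the branch point to sterols and prenylated proteins, read 508, 2290, 1310, 563, 2833 and 965 on the same arrays in the same order. Its 2 highest values were on the arrays with a gonadal profile, and the value on the array labelled mock brain lay inside the background spread.

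Fdft1, squalene synthase, which commits farnesyl diphosphate to sterols, read 4149, 4129, 5038, 4555, 5280 and 4556 on its brighter probe in the same order. The highest and lowest arrays differed by 1.28-fold, and only 0.762% of the 10763 genes whose mean over the arrays exceeded the median probe had a narrower range. Its other probe read between 59.4 and 75.7 and lay inside the background spread on all 6 arrays. Sqle, squalene epoxidase, an oxygen-dependent step, read 2476, 4267, 6917, 2429, 5376 and 4652. Here too the arrays with a brain profile were lowest, while the array labelled mock ovary was highest. Lss, lanosterol synthase, which closes the sterol rings, read 242, 910, 1277, 213, 1795 and 1029. Both brain-profile arrays lay inside the background spread, so their order has no meaning, and the other 4 lay above it.

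Scarb1 read 587 on the array labelled mock brain, 9625 on SHT brain, 732 on mock ovary, 547 on SHT ovary, 23019 on mock uterus and 1299 on SHT uterus. The 2 arrays with a gonadal profile stood above the other 4, and the lowest of these 2 was 7.41-fold above the highest of the rest. All 6 values exceeded the background spread, but the 587 on the array labelled mock brain lay near its limit of 541. On the array labelled SHT ovary the limit was 403. From highest to lowest the range was 42.1-fold. This range was wider than for 94.6% of the 10763 genes whose mean over the arrays exceeded the median probe. The median range of those genes was 2.91-fold. The ranges of the other members were 1.28-fold for Fdft1, 2.46-fold for Idi1, 2.85-fold for Sqle, at least 5.23-fold for Fdps and at least 4.46-fold for Lss. The ranges of Fdps and Lss as read were 5.58-fold and 8.42-fold, with their lowest arrays inside the background spread, and the bounds put the 95th percentile in place of such values.

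**Figure D1:**
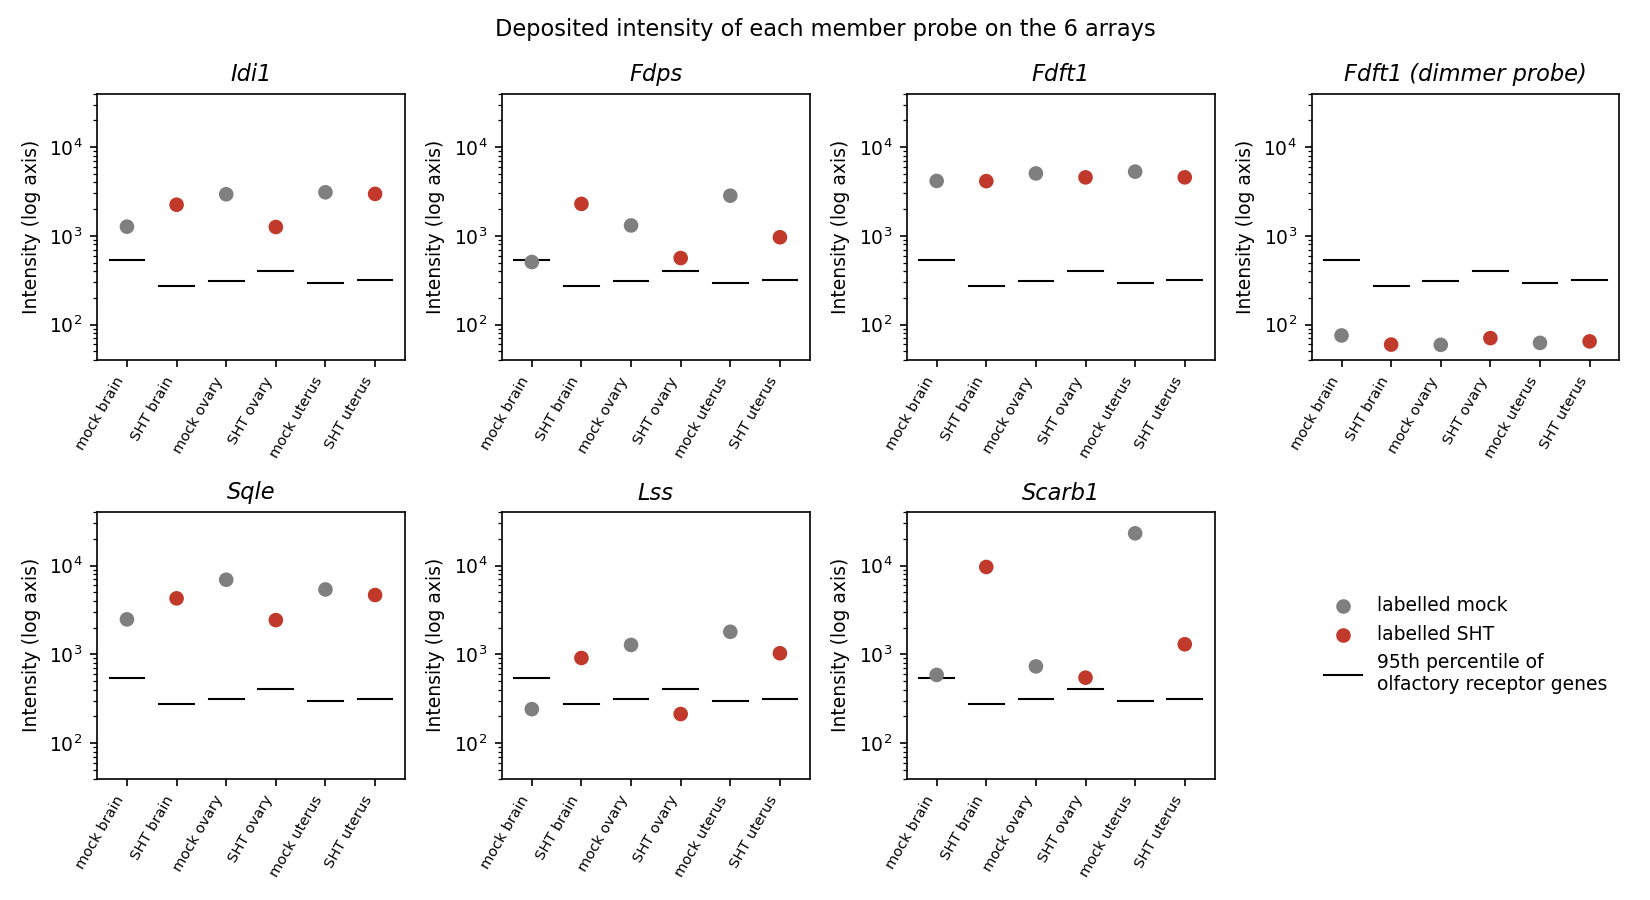
Deposited intensity (log axis) of the 7 probes of the 6 measured genes on each array, named by its labels, with the upper limit of the background spread as a bar. Scarb1 stands out at 9625 and 23019 on the SHT brain and mock uterus arrays, Fdft1 is nearly level on its brighter probe, and Idi1, Fdps, Sqle and Lss are lowest on the mock brain and SHT ovary arrays.

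The theca and luteal marker list moved with Scarb1. Its 3 measured genes of 6 (Star, Hsd3b1 and Akr1c18) summed to 94365 and 112177 on the SHT brain and mock uterus arrays, and to between 478 and 894 on the other 4. The granulosa and germ cell list, with 7 of 7 genes measured, summed to 43829 and 74591 on those arrays and to between 1344 and 4545 elsewhere. Of its 7 genes, 6 exceeded the background spread on those arrays and 1 on each of the other 4. On the mock ovary and SHT uterus arrays that 1 was Foxl2, at 3641 and 3942. Amh lay inside the background spread on all 6 arrays. The neuron list, with 5 of 7 measured, ran with the low arrays of the synthesis genes, with sums of 122290 and 130667 on the mock brain and SHT ovary arrays and between 565 and 4317 on the rest. No marker of these lists was listed at 0. Their part in the values of Scarb1 and of the synthesis genes was not tested.

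The first comparison the labels pose is SHT against mock in brain. Scarb1, Fdps and Lss were higher on the SHT array of this pair. Scarb1 was 16.8-fold higher, a log2 difference of 4.07 relative to the median gene of the pair. Its value on the array labelled mock brain, 587, lay just above the limit of the background spread there, 541. Fdps was at least 4.34-fold and Lss at least 1.73-fold higher, since the array labelled mock brain lay inside the background spread for both and its 95th percentile was used in its place. Idi1 (1.81-fold higher), Sqle (1.77-fold higher) and Fdft1 (1.02-fold higher, with a sign that turned under 3 alternatives) were under 2-fold. Of the 6 members, 3 were thus called at least 2-fold higher as read, Lss with a bound under 2-fold, and 0 lower, against 22.8% of 10746 genes called higher and 23.2% called lower. After centring arrays on their own medians, 5 members were called higher, Idi1 and Sqle being added. With only genes above the 75th percentile of pair means, 2 were called higher. The median log2 difference of the 6 members was 1.40 as read and 0.84 with Fdps and Lss at their bounds, and that of all genes was -0.08 as read.

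The same comparison in the pair labelled ovary ran the other way. Lss was at least 3.49-fold lower on its SHT array than on its mock array. Sqle was 3.13-fold, Idi1 2.57-fold and Fdps 2.56-fold lower. Scarb1 (1.47-fold lower) and Fdft1 (1.22-fold lower) were under 2-fold. Called were 4 of 6 members lower and 0 higher, against 23.6% of 10692 genes called lower and 22.9% called higher. Taking 3-fold as the threshold, or only genes above the 75th percentile of pair means, left 2 members called. The median over members was -1.36 on the log2 scale, and over all genes -0.01.

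Uterus was the third comparison, and only Scarb1 and Fdps passed 2-fold there. Scarb1 was 18.2-fold lower on its SHT array than on its mock array, a log2 difference of -4.18, and Fdps was 3.01-fold lower. Lss was 1.79-fold, Fdft1 1.19-fold, Sqle 1.18-fold and Idi1 1.07-fold lower. Against these 2 of 6 members stand 9.04% of 10765 genes called lower and 12.5% called higher. The median over members was -0.54, and over all genes -0.05. In each of the 3 pairs the arrays compared have different marker profiles, so treatment and tissue cannot be told apart, and no difference is assigned to SHT.

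**Figure D2:**
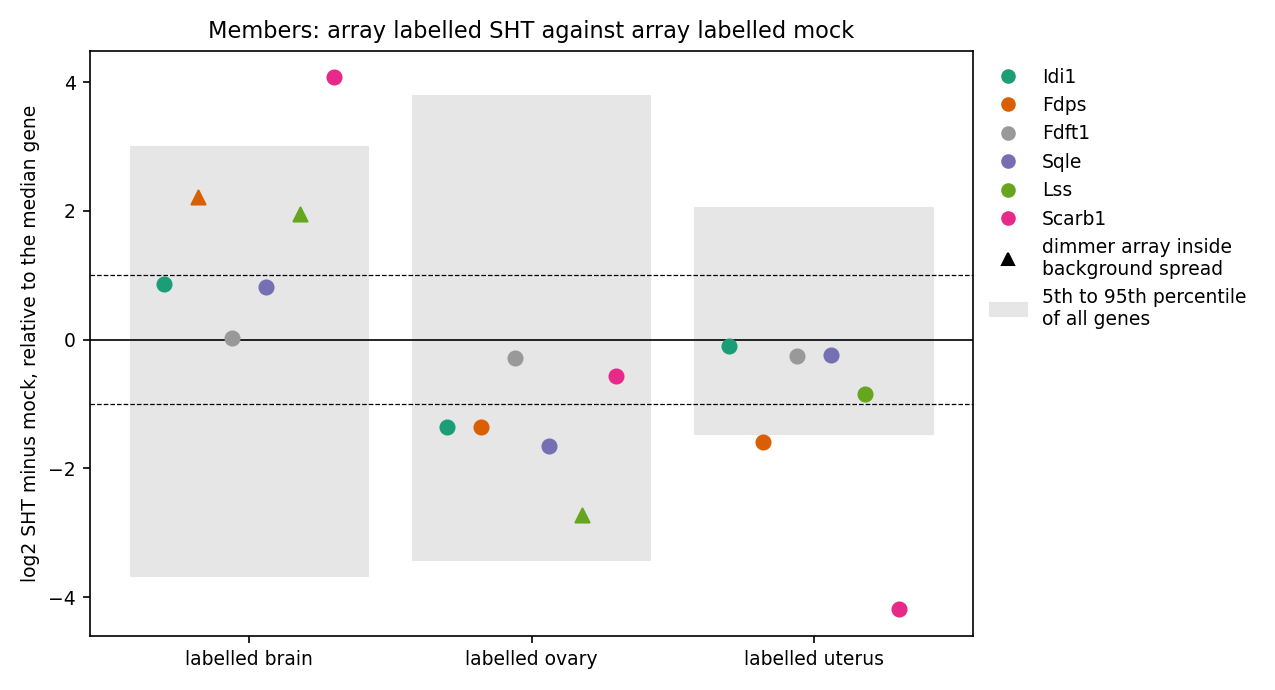
Log2 difference of the array labelled SHT minus the array labelled mock for the 6 members, relative to the median gene, with the 5th to 95th percentile of all genes above the level floor shaded and 2-fold dashed. Scarb1 lies at 4.07 in the pair labelled brain and at -4.18 in the pair labelled uterus, outside the shading, and Fdft1 lies near 0 in each pair. Triangles mark differences with the dimmer array inside the background spread.

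The average SHT effect over the 3 labelled tissues was tested with limma, with tissue as a block. No gene of 10763 passed an adjusted p of 0.05 (0% called), and 4 had an unadjusted p under 0.05. The residual of this fit also carries the arrays that go against their tissue label. The absence of calls therefore says nothing of an effect of SHT. Scarb1 had an average log2 difference of -0.18 with a standard error of 1.73 and a 95% interval from -4.99 to 4.64 (limma, adjusted p = 0.99996). It was higher on the array labelled SHT in 1 of the 3 tissues. For Lss the value was -0.49 (standard error 1.04), for Sqle -0.31 (0.58), for Fdps -0.20 (0.95), for Idi1 -0.15 (0.57) and for Fdft1 -0.12 (0.34). Each of these intervals includes 0, and that of Fdft1, the narrowest, ran from -1.06 to 0.82. Fdft1 was lower as read on the SHT array of all 3 pairs, and the other members were higher in 1 of 3. Leaving out the tissue labelled ovary turned the sign for Sqle, Idi1, Fdps and Lss, and leaving out uterus turned it for Fdps and Scarb1, as given below with the other settings.

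The arrays closest to each other over all probes differ in both labels. Between the mock brain and SHT ovary arrays, the members other than Lss differed by 1.01-fold to 1.14-fold relative to the median gene, where 0.151% of 10586 genes differed by at least 2-fold. Lss lay inside the background spread on both of these arrays, and Fdps, at 1.14-fold, on the array labelled mock brain. Between the SHT brain and mock uterus arrays, the median gene was itself higher on the latter, by 0.29 in log2. Relative to it, Scarb1 was 1.96-fold and Lss 1.61-fold higher on the array labelled mock uterus. The other 4 members differed by at most 1.13-fold, where 6.46% of 10762 genes differed by at least 2-fold. The median size of the difference over genes was 1.19-fold there. Between the mock ovary and SHT uterus arrays, the median gene was higher on the latter by 0.45 in log2. Relative to it, Sqle was 2.03-fold, Fdps 1.86-fold and Lss 1.70-fold lower on the array labelled SHT uterus. Fdft1 was 1.51-fold and Idi1 1.35-fold lower and Scarb1 1.30-fold higher, where 10.6% of 10690 genes differed by at least 2-fold. As read, Idi1 was nearly level on these arrays, at 2940 and 2967. Each of these is 1 array against 1, with no error.

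The members also differed among themselves in the shape of their pattern. Likeness was measured as the root mean square difference of log2 values over the 6 arrays after subtracting each gene's mean. Sqle and Idi1 were the closest members, at 0.18. Scarb1 was nearer to Fdps (1.32) than to any other member, and farthest from Fdft1 (2.08). Over 10762 genes, the 2 most like Idi1 were Lca5l (0.05) and Golim4 (0.07), those most like Sqle were Gins3 (0.07) and Tcf19 (0.11), and those most like Fdps were Racgap1 and Kif4 (both 0.11). Fdft1 was closest to Gbf1 and Psmd4 (both 0.06), Lss to Atp10d (0.14) and Gpc3 (0.15), and Scarb1 to Susd3 (0.24) and Fst (0.25). Susd3 read 3062 and 5329 on the SHT brain and mock uterus arrays and between 156 and 319 on the others, a contrast of the same arrays that separate for Scarb1. Of these 12 like genes, Tcf19, Gbf1, Psmd4 and Atp10d stayed above the background spread on every array, and the others lay inside it on 2 or 3 arrays.

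Other cholesterol synthesis genes past 2-fold were most frequent in the pair labelled uterus. Of its 15 genes, 12 had a probe and 9 lay above the level floor in each pair. The pair labelled brain had 3 of 9 (33.3%) at least 2-fold higher and 0 lower, against 22.8% and 23.2% of all genes. Ebp, a sterol isomerase, read 4299 and 12848 on the mock brain and SHT brain arrays and was 3.07-fold higher, Mvd, which forms isopentenyl diphosphate, was 2.15-fold higher, and Dhcr7, of the last step to cholesterol, was at least 1.87-fold higher. The pair labelled ovary had 2 of 9 (22.2%) lower, near the 23.6% of all genes, and 0 higher, against 22.9%. The lower genes were Mvk, mevalonate kinase, by 3.11-fold and Ebp by 2.77-fold. The pair labelled uterus had 5 of 9 (55.6%) lower and 0 higher, against 9.04% and 12.5% of all genes. These were Dhcr7 (5.02-fold), Hsd17b7 (4.90-fold), Mvd (2.95-fold), Msmo1, which removes methyl groups from the sterol ring (2.38-fold), and Tm7sf2, a sterol reductase (2.16-fold). The list medians in brain, ovary and uterus were 0.74, -0.41 and -0.67 as read over the 12 genes with a probe, against -0.08, -0.01 and -0.05 over all genes. With genes at their bounds, and genes inside the background spread on both arrays at 0, they were 0.09, -0.23 and -0.43.

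Hsd17b7, a 3-ketosteroid reductase of the pathway, was high on a single array. It read 12272 on the array labelled mock uterus and between 1907 and 2567 on the other 5, the array labelled SHT brain (1923) included. Dhcr7 was also highest on the array labelled mock uterus, at 2654, but the array labelled SHT brain came next, at 985. It read between 387 and 684 elsewhere, with both brain-profile arrays inside the background spread. Ggps1, which takes farnesyl diphosphate to the geranylgeranyl branch, ran opposite to Idi1, Fdps, Sqle and Lss on its brighter probe. That probe read 586 and 599 on the brain-profile arrays against 345 to 363 on the rest. Its other probe read between 176 and 269 and lay inside the background spread on all 6 arrays.

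**Figure D3:**
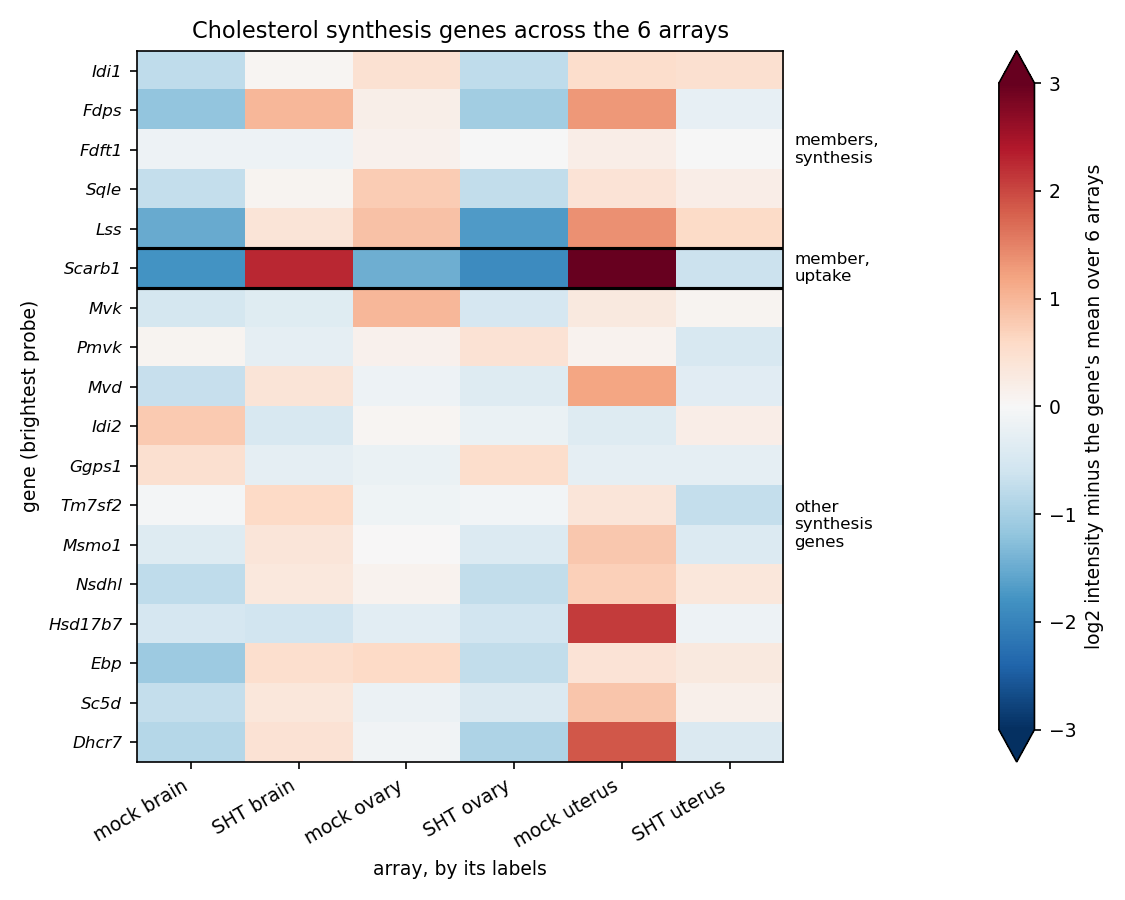
Log2 intensity of each gene minus its own mean over the 6 arrays (colour scale cut at -3 and 3) for the 6 members and the 12 other synthesis genes with a probe. Most rows are low on the mock brain and SHT ovary arrays, Fdft1 is nearly even, and Hsd17b7 and Dhcr7 are highest on the array labelled mock uterus. Idi2, Nsdhl and Sc5d lay inside the background spread on all 6 arrays, so their rows have no meaning.

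Few genes of sterol sensing passed 2-fold, at shares near or under those of all genes in the pairs labelled brain and ovary. Srebf2, which encodes SREBP2, read 2635 and 2331 on the mock brain and SHT ovary arrays and between 1121 and 1220 on the other 4, so it was highest where Idi1, Fdps, Sqle and Lss were lowest. Srebf1, whose products drive fatty acid synthesis, read 4031 and 3746 on those arrays and between 472 and 1782 elsewhere. Of 9 genes of this list above the floor, 1 was higher and 2 lower in the pair labelled brain, 1 higher and 0 lower in the pair labelled ovary, and 1 higher and 2 lower in the pair labelled uterus. As shares these are 11.1% higher in each pair and 22.2%, 0% and 22.2% lower, against 22.8%, 22.9% and 12.5% of all genes higher and 23.2%, 23.6% and 9.04% lower. The lower genes in the pair labelled brain were Srebf1 (8.32-fold) and Srebf2 (2.27-fold), and the higher gene was Mbtps1 (2.42-fold), the protease that first cuts SREBPs. Srebf1 was the higher gene in the pairs labelled ovary (3.29-fold) and uterus (2.56-fold). Scap, the SREBP escort, was 2.64-fold lower and Insig1, which retains it, 2.07-fold lower in the pair labelled uterus. The list medians over the 10 genes with a probe were 0.06, 0.02 and -0.20 as read, and 0.00, 0.04 and -0.05 with bounds.

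Genes that store, release and export cholesterol passed 2-fold about as often as all genes did, apart from a larger share lower in the pair labelled brain. Soat1, which esterifies cholesterol for storage, read 1577 and 3469 on the SHT brain and mock uterus arrays, 724 on SHT uterus and between 171 and 253, inside the background spread, on the other 3. It was at least 2.99-fold higher in the pair labelled brain and 4.91-fold lower in the pair labelled uterus, the directions of Scarb1. In the pair labelled brain 4 of 15 genes of this list were higher and 6 lower, in the pair labelled ovary 4 higher and 3 lower of 15, and in the pair labelled uterus 2 higher and 2 lower of 16. Higher were thus 26.7%, 26.7% and 12.5%, against 22.8%, 22.9% and 12.5% of all genes, and lower 40%, 20% and 12.5%, against 23.2%, 23.6% and 9.04%. Cd36, 1 of the 6 lower genes in the pair labelled brain, lay inside the background spread on both arrays. Lrp8, an apolipoprotein E receptor of neurons, was 6.86-fold lower, 4.50-fold higher and 2.79-fold lower in these pairs. Lcat, which esterifies cholesterol in lipoproteins, was at least 5.53-fold lower in the pair labelled brain. Npc2, a lysosomal sterol carrier, was 2.92-fold lower and Abca2, an intracellular lipid transporter, 3.63-fold higher in the pair labelled ovary. Pdzk1, which anchors the Scarb1 receptor at the membrane of liver cells, was 3.51-fold higher and Abcg1, an exporter to high-density lipoprotein, 2.67-fold higher in the pair labelled uterus. Over the 16 genes with a probe the list medians were -0.55, -0.29 and 0.28 as read, and -0.23, 0 and 0.17 with bounds. Lipe, a hormone-sensitive lipase known from adipocytes and steroid-producing cells, read 3108 and 3354 on the brain-profile arrays against 181 to 458 elsewhere. The adipocyte markers ran the other way, with sums of 840 and 471 on those 2 arrays and between 31048 and 72009 on the rest, and whether the probe named Lipe measures that gene is not known here. Apoe, the main apolipoprotein of the brain, read between 14202 and 28014 on all arrays and passed 2-fold in no pair.

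Of the genes that use cholesterol for steroids, Star, Nr5a1 and Fdx1 were highest on the arrays where Scarb1 was highest. Of 10 listed, 6 had a probe. Star is also 1 of the 3 measured theca and luteal markers behind the gonadal profile, so its pattern there is not a separate result. Star, which carries cholesterol into mitochondria, read 9160 and 10428 on the SHT brain and mock uterus arrays and between 31.6 and 78.3 on the others on its brighter probe, and 1300 and 1995 against 31.4 to 44.9 on its other probe. Nr5a1, which encodes the steroidogenic factor SF-1, read 2174 and 3495 on these arrays and between 29.3 and 40.8 on the rest. Fdx1, the electron donor of mitochondrial steroid enzymes, read 25575 and 34337 there and between 1281 and 4351 elsewhere. Tspo, an outer mitochondrial membrane protein that binds cholesterol, was instead high on 4 arrays, from 4260 to 6285, and inside the background spread at 248 and 285 on the brain-profile arrays. In the pair labelled brain 4 of 6 were higher and 0 lower, in the pair labelled ovary 0 of 4 higher and 2 lower, and in the pair labelled uterus 0 of 6 higher and 3 lower. As shares these are 66.7% higher in brain, and 50% lower in ovary and in uterus. The shares of all genes were 22.8% higher and 23.2% lower in brain. They were 22.9% higher and 23.6% lower in ovary, and 12.5% higher and 9.04% lower in uterus. Medians over the 6 genes were 4.36, -0.80 and -1.88 on the log2 scale as read, and 2.64, -0.04 and -1.88 with bounds, since 3, 2 and 2 of them had the dimmer array inside the background spread and 1, 2 and 0 had both.

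**Figure D4:**
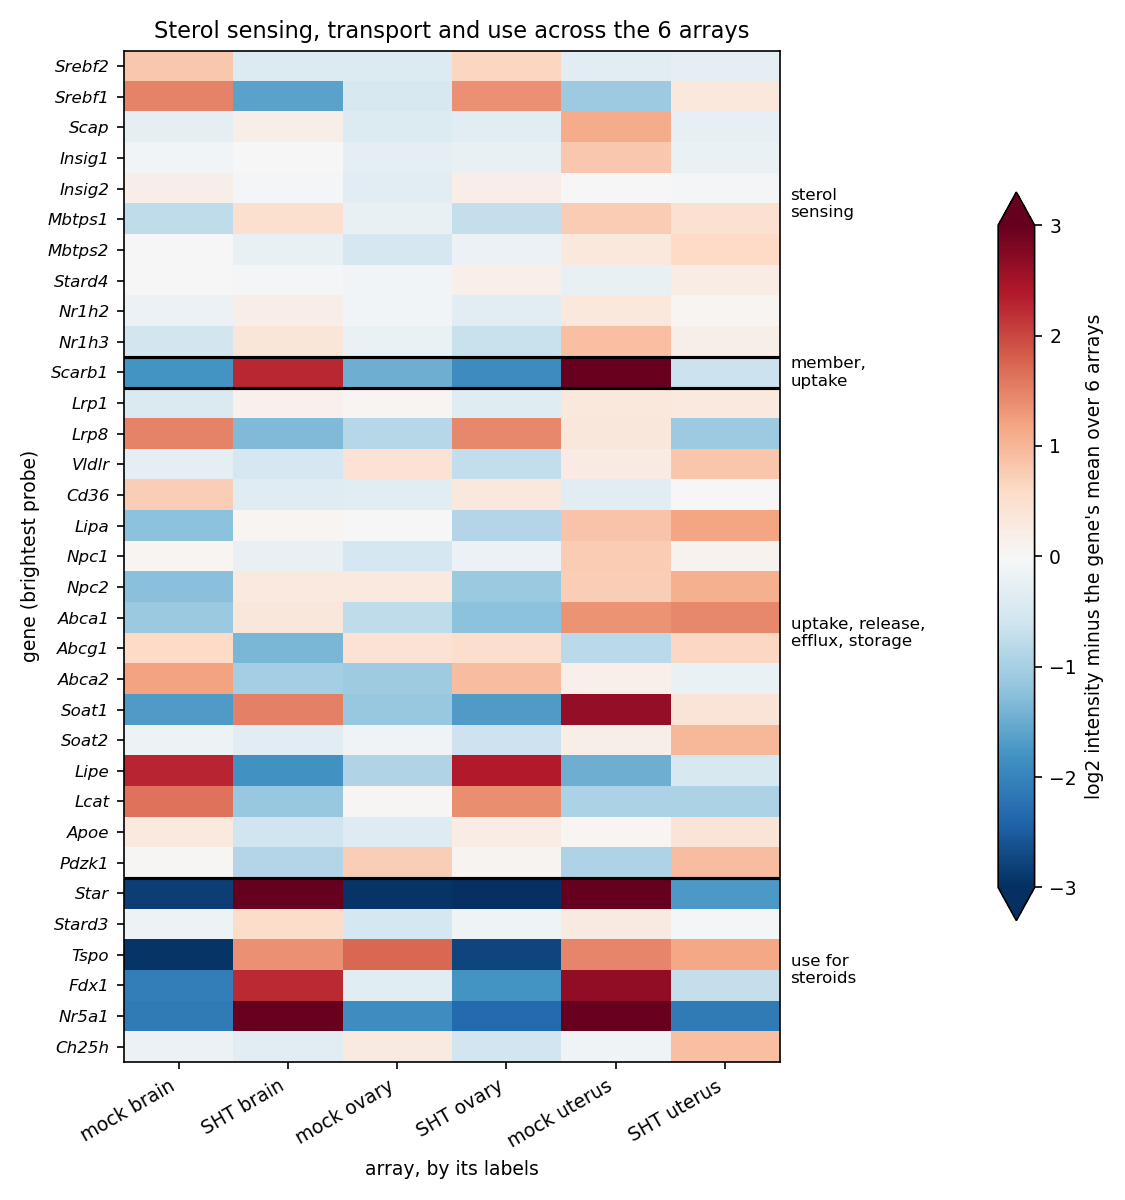
Log2 intensity of each gene minus its own mean over the 6 arrays (colour scale cut at -3 and 3) for genes of sterol sensing, for Scarb1, and for genes of cholesterol transport, storage and steroid use. Scarb1, Soat1, Star, Fdx1 and Nr5a1 are highest on the SHT brain and mock uterus arrays, and Srebf2, Srebf1, Lrp8, Lipe and Lcat are highest on the mock brain and SHT ovary arrays.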

How the data were processed

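RNA of 3 tissues under 2 conditions was measured on 6 1-colour Cy5 arrays, per the labels' protocols. The deposited values are linear intensity for 26423 probes per array. The submitters' processing notes name limma without a version or a step. Background correction and scaling were not given in the sources used here, and array medians differed (179 to 224). Low values were set to the array's own 5th percentile of positive intensity (5.66 to 6.66) before log2 was taken. Of 20377 probes with 1 symbol, 18213 symbols matched a current symbol in a RefSeq table of GRCm38.p6, 2126 a synonym, and 38 were kept as given. The other 6046 probes are unnamed here. The brightest probe stood for a gene. A gene was counted where its mean over the pair exceeded the median probe (the level floor) and it differed by at least 2-fold relative to the pair's median gene, which lay at -0.04, 0.14 and 0.04 for brain, ovary and uterus. A fold is a lower bound where the dimmer array was inside the background spread, and counts do not use that bound. With 1 array per group these comparisons have no test.

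The average SHT effect was fitted with limma 3.58.1 in R 4.3.3 (lmFit, eBayes with trend, tissue labels as block, two-sided test, Benjamini-Hochberg), and measures the spread between labelled tissues, not between mice. Alternatives were quantile normalization, centring on array medians, averaged probes, other floors, a 3-fold threshold, values raised to the olfactory receptor median, and for limma no trend, no block or 1 labelled tissue fewer. Working without the median gene was added after seeing the data. Named genes were the members, in each list up to 4 genes with the largest differences per pair, and the 2 most alike to each member. Tm7sf2, Ggps1, Cd36 and Apoe were named after their values were seen. The members and lists were chosen with earlier results of these data known.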

Additional observations from a re-analysis of the deposited data

Results flagged for a closer look

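Every measured member had a positive log2 difference (SHT minus mock, relative to the median gene) in the pair labelled brain and a negative one in the pairs labelled ovary and uterus. With 1 array per group the difference between tissues was not tested. Between brain and ovary these log2 differences were apart by 4.63 for Scarb1, 3.57 for Fdps, 2.47 for Sqle, 2.22 for Idi1 and 0.31 for Fdft1. For Lss they were apart by 4.67 as read, but by at least 2.59 with the 95th percentile of the background spread in place of values inside it. Between brain and uterus they were apart by 8.26 for Scarb1, 3.80 for Fdps, 1.07 for Sqle, 0.95 for Idi1 and 0.28 for Fdft1. Lss was apart by 2.79 as read and at least 1.63 with that bound, and for Fdps the bounds are 3.48 against ovary and 3.71 against uterus. In the pair labelled brain the sign of Fdft1, at a log2 difference of 0.03, turned under 3 alternatives. The arrays of each pair have different marker profiles, and the part of tissue in these differences was not tested.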

How the results depend on the processing

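The labels give no replicate numbers, so the limma fit pairs arrays by labelled tissue only. The count of members at least 2-fold different and higher in the pair labelled brain was 5 in place of 3 with each array centred on its median. It was 2 with the floor at the 75th percentile of pair means. In the pair labelled ovary the count different and lower was 2 in place of 4 at a 3-fold threshold, and 2 with the floor at the 75th percentile of pair means. All 144 member differences in a pair under the alternatives stayed within 1.5-fold of the reported value. The sign of Fdft1 in the pair labelled brain turned with averaged probes (-0.14), with the higher floor (-0.01) and without subtracting the median gene (-0.01). Centring on array medians put the median gene at 0.23 in brain, quantile normalization at 0.10, and values as deposited at 0.14 in ovary. The average SHT effect changed sign in 6 of 54 cases, all without a labelled tissue. Without ovary it was 0.29 for Sqle, 0.38 for Idi1, 0.31 for Fdps and 0.55 for Lss, and without uterus 0.48 for Fdps and 1.81 for Scarb1. limma called 0 genes under every alternative, with 3 to 461 at an unadjusted p under 0.05. The count of all genes at least 2-fold different fell from 4948, 4971 and 2320 in brain, ovary and uterus to 3110, 3303 and 1269 at 3-fold and to 2386, 2459 and 904 with the higher floor, and rose to 3710 in uterus without a floor. Signal over background limits Lss most, on 2 arrays, then Fdps, on 1.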
